A study of Mus musculus with 100 samples.

Results

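Neuropeptides are short signalling peptides that neurons and endocrine cells cut from longer precursor proteins, pack into dense core vesicles and release to act on G protein-coupled receptors. Each precursor gene marks particular classes of neuron, so the set of peptide genes that a culture transcribes is often read as a description of its neuron types. Several of these genes are also transcribed outside the nervous system, for example in gut endocrine cells and in the early embryo.

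A set of 10 neuropeptide precursor genes (Tac1, Npy, Sst, Cck, Penk, Pdyn, Vip, Gal, Nts and Calca) was followed, out of 23109 gene entries, in 37 mouse RNA-seq libraries of 18 groups. All 10 were present in every table, and the transcript with the most reads over the 37 libraries stood for each gene. The set was selected on measured values, since it was drawn up with results of these data known, among them the Tac1 level of the day 16 neural cultures, so that value is given as a description.

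The study asked what the catalytic activity of MLL3 and MLL4 (KMT2C and KMT2D) does in differentiation; these enzymes methylate histone H3 lysine 4 at enhancers. All cultures came from mouse embryonic stem cells that are Mll3-/-; the reference cells are Mll4flox/flox (flox) and the compared cells Mll4KI/KI (KI, clones 27 and 48). Stem cells in 2i+LIF (day 0) and embryoid bodies (suspension aggregates, days 4 and 10) had 1 flox library and 2 KI libraries per day. Neural progenitors at day 8, made from aggregates given 5 µM retinoic acid after day 4, and neurons plated from them and taken at day 16, had 2 libraries per genotype and day. Trophectoderm cultures (day 6 of a doxycycline-induced, T7-tagged CDX2 transgene) and extraembryonic endoderm cultures (day 5 with retinoic acid and activin A) also had 2 per genotype. Embryos, sampled whole at E8.5 and at E9.5, were Mll3flox/KI;Mll4flox/KI;Sox2-Cre (KI) or Mll3flox/KI;Mll4flox/+;Sox2-Cre (control), with 3 libraries per group; Sox2-Cre recombines in the epiblast, the part of the early embryo that forms the body. KI is not spelled out in the labels. Each culture comparison rests on 2 KI clones and on flox libraries that the titles do not name as separate lines. Those of the neural series are only numbered. P-values therefore measure the spread between these samples, and the 2 neural day 8 flox libraries differed by little more than sampling noise.

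Reads assigned to genes ran from 18.9 to 59.9 M per library, with 39.0 to 59.9 M in the neural series. Levels are reads per M reads (CPM) scaled within the neural, trophectoderm and endoderm, embryo or embryoid body libraries. A count of 0 allows up to 3 reads, or 0.05 CPM in the deepest library and 0.159 in the shallowest, for counting error only. Kmt2d ranged from 164 to 248 CPM in the KI neural libraries and from 186 to 206 in flox, so its level does not check the KI label. Kmt2c stood at 27.99 to 101 CPM in the cultures and at 33.9 to 61.6 CPM in the embryos, so its level does not check the Mll3-/- label either. Tubb3, a neuronal tubulin, was at 729 to 1767 CPM in the day 16 neural libraries. Trophectoderm cultures still held 62.7 to 216 CPM of the pluripotency gene Pou5f1, and KI endoderm cultures had 11.3 and 11.6 CPM of the endoderm factor Sox17, against 72.9 and 85.0 in flox. In such bulk libraries, fewer cells of a type and less RNA per cell cannot be told apart.

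The 250 bases before the start site are shown for Sst, Tac1, Calca and Nts, the members with the largest day-dependent differences between KI and flox neural cultures. RefSeq (GRCm38.p6) gave an entry for 9 of the 10 genes. Capitals mark TGACG or its reverse complement CGTCA, the core of the cAMP response element (CRE), through which CREB-type factors are known to act on several peptide genes. Sequences run 5′ to 3′ along the transcribed strand: Sst at chr16:23890845-23891094 (minus), Tac1 at chr6:7554811-7555060 (plus), Calca at chr7:114636358-114636607 (minus) and Nts at chr10:102490419-102490668 (minus).
Sst: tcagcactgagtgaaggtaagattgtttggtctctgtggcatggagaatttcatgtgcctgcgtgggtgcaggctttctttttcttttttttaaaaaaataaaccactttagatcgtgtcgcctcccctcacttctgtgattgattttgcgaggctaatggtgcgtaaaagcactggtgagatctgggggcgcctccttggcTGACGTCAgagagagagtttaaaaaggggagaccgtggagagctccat
Tac1: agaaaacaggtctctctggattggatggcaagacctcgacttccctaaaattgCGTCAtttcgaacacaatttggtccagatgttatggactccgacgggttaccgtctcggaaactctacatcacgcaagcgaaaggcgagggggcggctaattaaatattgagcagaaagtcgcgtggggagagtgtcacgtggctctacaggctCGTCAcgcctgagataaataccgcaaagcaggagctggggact
Calca: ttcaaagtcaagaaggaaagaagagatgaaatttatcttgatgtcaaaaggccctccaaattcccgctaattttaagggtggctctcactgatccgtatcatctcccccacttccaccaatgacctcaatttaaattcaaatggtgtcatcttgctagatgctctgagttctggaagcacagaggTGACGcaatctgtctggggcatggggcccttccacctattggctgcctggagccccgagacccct
Nts: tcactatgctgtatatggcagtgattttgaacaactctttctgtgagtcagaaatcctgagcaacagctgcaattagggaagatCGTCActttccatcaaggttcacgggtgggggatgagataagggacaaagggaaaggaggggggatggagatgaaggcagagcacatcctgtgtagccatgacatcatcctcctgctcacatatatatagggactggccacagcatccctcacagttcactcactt
The complete palindrome TGACGTCA lay in the Sst window alone among the members matched, from -48 to -41 relative to the start site, and 1.55% of 32851 promoters of the same length hold it. TGACG on either strand, which the palindrome includes, was found in the windows of 6 members, namely Tac1 (at -197 and -43), Sst, Cck, Vip, Nts (at -166) and Calca (at -65), and in 17.8% of all promoters. The E-box CACGTG lay in the Tac1 and Cck windows (6.02% of promoters), and AGGTCA on either strand, the core of retinoid receptor elements, in the Calca window (14.0% of promoters). A match describes the letters of the window and not a bound site.

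At neural day 8, before neurons were plated, Sst, the precursor of somatostatin, an inhibitory peptide of interneurons and endocrine cells, was 3.92-fold lower in KI progenitors than in flox. KI progenitors had more Calca, the precursor of calcitonin and calcitonin gene-related peptide (CGRP), and more Penk, the enkephalin precursor, from a low level. Gal, the galanin precursor, was lower and near 1 CPM or below in every library. Tac1, Npy, Nts and Cck lay between 0.242 and 1.16 CPM in both genotypes and did not pass the test.

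Sst stood at 55.1 and 55.9 CPM in the flox libraries and at 15.9 (clone 27) and 12.5 CPM (clone 48) in KI. The groups were far apart, with a log2 fold change of -1.97 (SE 0.15, adjusted p = 2.03e-06, edgeR's quasi-likelihood test with Benjamini-Hochberg adjustment over 16439 genes; later comparisons used the same test, adjusted over the genes tested in each). Calca was at 2.81 and 2.86 CPM in flox and at 13.0 and 9.36 CPM in KI, a log2 fold change of 1.98 (SE 0.22, adjusted p = 3.71e-05). Both KI clones exceeded both flox libraries, clone 27 by more. Penk was at 0.615 and 0.724 CPM in flox and at 1.73 and 1.20 CPM in KI, with no overlap and a log2 fold change of 1.11 (SE 0.21, adjusted p = 0.00233). Gal was at 0.571 and 1.08 CPM in flox and at 0.266 and 0.280 CPM in KI (log2 fold change -1.60, SE 0.43, adjusted p = 0.0191). That call rested on few reads and was lost in DESeq2 (adjusted p = 0.0522) and on leaving out flox 2 (adjusted p = 0.258), clone 27 (adjusted p = 0.118) or clone 48 (adjusted p = 0.125).

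Of the 9 members tested at day 8, 2 were higher in KI, 2 were lower and 5, Pdyn with at most 1 read per library among them, did not pass, where 19.5% of all genes tested were called, 6.30% as higher and 13.2% as lower. These 3202 genes became 1950 without flox 1, 1896 without flox 2 and 2111 without clone 48. With only the day 8 libraries fitted, 1803 of 15602 genes were higher and 2553 lower, and the members called were again 2 higher and 2 lower. The members' median log2 fold change was 0.05, beside 0.00 over all genes. Pdyn encodes the dynorphin precursor. Vip, the precursor of vasoactive intestinal peptide, had no read. Among markers of neurons, 9 of 12 fell and none rose. Their summed level was 2163 and 2167 CPM in flox and between 1393 and 1617 CPM in KI. None of the 12 was at 0. Extraembryonic endoderm markers were lower for 8 of 9 tested (summed level 117 CPM in flox, 38.2 and 41.5 CPM in KI, median log2 fold change -1.64), and mesothelial and fibroblast markers for 6 of 10 (402 to 404 CPM in flox, 159 to 200 CPM in KI, median -0.99), with none higher in either list. The part of these lists in the differences was not tested.

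At neural day 16, Tac1, which encodes substance P and neurokinin A, was the most abundant peptide gene of the KI cultures. It stood at 21.2 and 18.1 CPM in flox and at 305 (clone 27) and 354 CPM (clone 48) in KI. In reads, this is 1207 and 724 in flox against 14967 and 18697 in KI. The fitted difference was 16.7-fold (log2 4.07, SE 0.15), and it ranged from 3.96 to 4.19 when any single day 16 library was left out. This difference was known when the gene was listed, so no test is attached to it. At day 8 the same gene had shown no such difference, at 0.396 and 0.334 CPM in flox and 0.555 and 0.260 CPM in KI, with overlapping groups (adjusted p = 0.858).

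**Figure D1:**
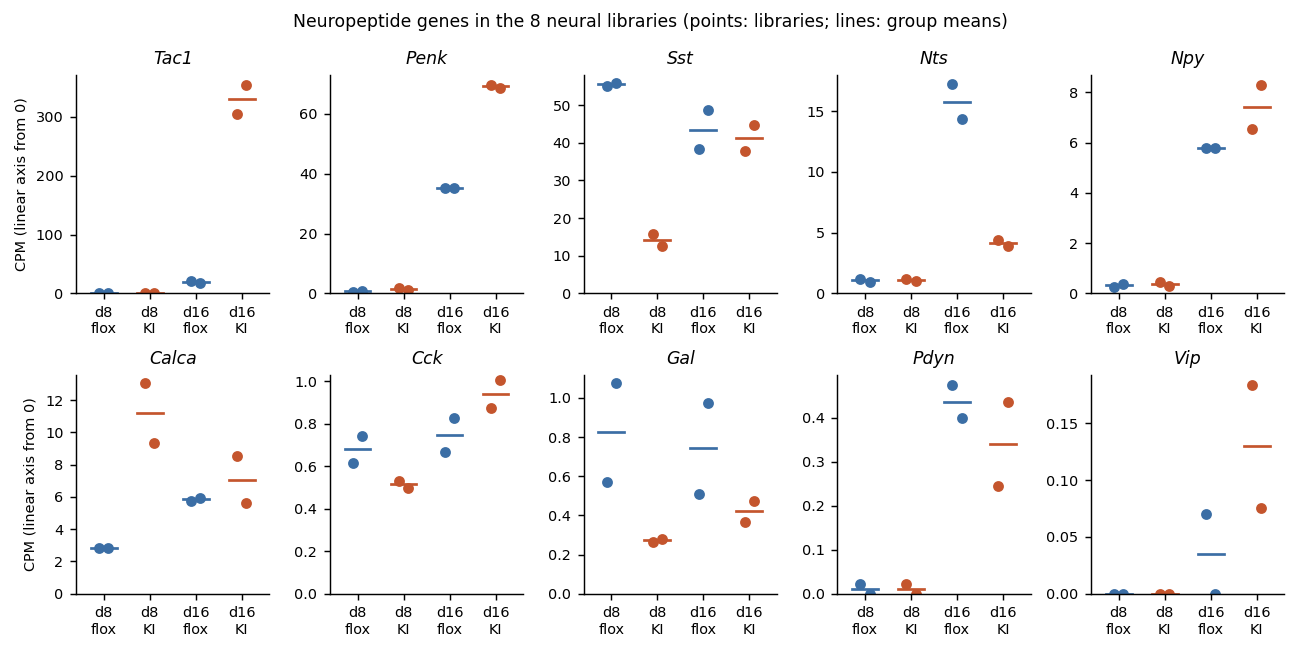
CPM (linear axes from 0) of each neuropeptide gene in the 8 neural libraries, by day and genotype; each point is a library and each line a group mean of 2. Tac1 reaches 305 and 354 CPM only in the day 16 KI libraries, Sst is lowest in the day 8 KI libraries (15.9 and 12.5 CPM), and Nts at day 16 is lower in KI (4.40 and 3.90 CPM) than in flox.

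Penk and Nts also differed at day 16, in opposite directions. Penk was at 35.3 and 35.4 CPM in flox and at 69.7 and 68.7 CPM in KI, a log2 fold change of 0.97 (SE 0.11, adjusted p = 2.78e-05). The libraries of each genotype nearly coincided. Nts, the neurotensin precursor, was at 17.2 and 14.4 CPM in flox and at 4.40 and 3.90 CPM in KI, a log2 fold change of -1.93 (SE 0.15, adjusted p = 1.60e-06). It was thus 3.81-fold lower in KI with no overlap.

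Sst no longer separated the genotypes at day 16, with 38.4 and 48.6 CPM in flox and 37.8 and 44.7 CPM in KI (log2 fold change -0.08, SE 0.14, adjusted p = 0.682). Npy, the precursor of neuropeptide Y, was at 5.78 and 5.80 CPM in flox and at 6.54 and 8.30 CPM in KI. Its groups did not overlap, but it did not pass the test (log2 fold change 0.36, SE 0.18, adjusted p = 0.122). Calca was at 5.73 and 5.95 CPM in flox and at 8.56 and 5.59 CPM in KI, with overlapping groups (log2 fold change 0.28, SE 0.20, adjusted p = 0.291). Cck, the cholecystokinin precursor, and Gal lay between 0.367 and 1.00 CPM, Pdyn between 0.244 and 0.474 CPM, and Vip at 0.18 CPM or less. Of the 8 members tested besides Tac1, 1 was higher, 1 was lower and 6 did not pass, against 46.9% of all genes called, 27.1% as higher and 19.7% as lower. With only the day 16 libraries fitted, the balance over all genes turned, with 2467 of 15860 genes higher and 3219 lower, and the members called were again 1 higher and 1 lower. The members' median log2 fold change, Tac1 left out, was 0.10, beside 0.09 over all genes.

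On the deposited per-length scale (RPKM), which allows levels of different genes to be set side by side, Sst led in flox neurons at day 16 with 48.3 and 62.6. Penk followed with 18.9 and 19.3 RPKM, Tac1 with 15.5 and 13.5, Nts with 11.0 and 9.40, Npy with 7.99 and 8.21 and Calca with 4.34 and 4.62. In KI neurons Tac1 led with 187 and 218 RPKM, and Sst came next with 39.9 and 47.5, then Penk with 31.3 and 31.003. Nts, at 2.36 and 2.11 RPKM, lay below Npy (7.60 and 9.71) and Calca (5.45 and 3.58) in KI, whereas it lay above both in flox. Tac1 made up 16.9% and 13.9% of the summed CPM of the 10 members in flox and 70.3% and 72.7% in KI. Without Tac1 the members summed to 104 and 112 CPM in flox and to 129 and 133 CPM in KI.

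Several sets of cell markers moved at day 16 as well. All 12 neuron markers were higher in KI (summed level 5572 to 5779 CPM in flox and 9514 to 10506 CPM in KI, median log2 fold change 0.82 beside 0.09 over all genes). All 10 mesothelial and fibroblast markers were lower (3805 to 4023 CPM in flox, 1022 to 1248 CPM in KI, median -2.23), with Msln at 0 in 1 KI library. Among 10 sensory and peripheral neuron markers, 3 rose and 6 fell, where 27.1% of all genes were called as higher and 19.7% as lower. Pou4f1 was higher (log2 fold change 1.35) and Runx1 lower (-2.10). The median of this list was -1.41, while its summed level was 91.3 and 107 CPM in flox and 145 and 170 CPM in KI. Among 10 GABAergic and striatal markers tested, 3 rose and 1 fell, a share no larger than the 46.9% over all genes. Among 8 glutamatergic markers, 1 rose and 3 fell, and their summed level was 53.3 and 58.8 CPM in flox and 153 and 157 CPM in KI. Extraembryonic endoderm markers summed to 75.1 and 75.2 CPM in flox and to 12.9 and 24.1 CPM in KI (3 of 9 tested lower, 1 higher). Trophoblast markers summed to 12.8 and 14.9 CPM against 4.64 and 4.77 CPM (4 of 7 lower). Pluripotency markers summed to 42.6 and 44.6 CPM against 19.8 and 27.4 CPM (3 of 5 lower). The part of these shifts in the Tac1, Penk and Nts differences was not tested.

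Between day 8 and day 16, Penk, Npy and Nts rose in both genotypes. In flox, Penk rose by a log2 fold change of 5.71 (SE 0.16, adjusted p = 2.05e-11), 52.3-fold. Tac1 went from 0.396 and 0.334 CPM to 21.2 and 18.1 CPM (log2 5.75, SE 0.21), given as a description because its day 16 level was known when it was listed. Npy rose by 4.16 (SE 0.26, adjusted p = 1.45e-08) and Nts by 3.90 (SE 0.18, adjusted p = 8.59e-10). Pdyn had 1 and 0 reads at day 8 and 27 and 16 at day 16, a ratio with a 95% counting interval from 7.50 to 1781. It passed the filter on low counts through the day 16 libraries, so it is given as a description with no p. Calca rose by 1.04 (SE 0.22, adjusted p = 0.00086), a call that was lost when the reads of its transcripts were summed (0.22, adjusted p = 0.339). Sst alone fell, by 0.35 on the log2 scale (SE 0.14, adjusted p = 0.0327). That fall was lost on leaving out flox 1 at day 8 (adjusted p = 0.0798) or day 16 (0.263), or flox 2 at day 8 (0.111). Cck and Gal did not pass. Of 7 members tested besides Tac1 and Pdyn, 4 rose, 1 fell and 2 did not pass, where 77.1% of all genes were called, 38.4% as higher and 38.7% as lower.

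In KI cultures, Penk rose by 5.57 (SE 0.15, adjusted p = 5.73e-12) and Npy by 4.28 (SE 0.25, adjusted p = 5.83e-09). Pdyn went from 1 and 0 reads to 12 and 23, again a description, with a counting interval of the ratio from 5.5 to 1328. Nts rose by 1.95 (SE 0.18, adjusted p = 6.76e-07) and Sst by 1.54 (SE 0.14, adjusted p = 6.06e-07). Cck rose by 0.87 (SE 0.26, adjusted p = 0.00890), which did not hold in DESeq2 (adjusted p = 0.0966) or without clone 48 at day 16 (adjusted p = 0.0507). Calca fell by 0.66 on the log2 scale (SE 0.20, adjusted p = 0.00854), and this was lost without clone 27 at day 8 (adjusted p = 0.140) or clone 48 at day 16 (0.0722). With the reads of its transcripts summed the value was -1.54 (adjusted p = 1.6e-05). Vip, under the filter on low counts, went from no read to 9 and 4 reads. That is at least 2.05-fold over the floor of 3 reads per library, given as a description with no p. Of 7 members tested with the filter besides Tac1 and Pdyn, 5 rose, 1 fell and 1 did not pass, against 79.9% of all genes called, 40.7% as higher and 39.2% as lower. Tac1 went from 0.555 (clone 27) and 0.260 CPM (clone 48) to 305 and 354 CPM, given as a description. Neuron markers rose between the days for 11 of 12 in flox and 12 of 12 in KI. Neural progenitor markers fell for 7 of 8 and rose for 1 in both. Mesothelial and fibroblast markers rose for 8 of 10 and fell for 2 in flox, and rose for 6 and fell for 4 in KI. Glia markers rose for 6 of 7 tested in flox, and rose for 5 and fell for 1 in KI. The part of these shifts in the day changes was not tested.

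The KI difference itself changed between the days for 3 genes, by a test of the day-by-genotype term. Sst moved from lower to level, a change of 1.90 on the log2 scale (SE 0.20, adjusted p = 3.10e-05). Nts moved from level to lower (-1.95, SE 0.26, adjusted p = 0.000179), and Calca from higher to level (-1.70, SE 0.30, adjusted p = 0.00102). Penk gave -0.14 (SE 0.24, adjusted p = 0.691), with the KI level above flox on both days. Npy, Cck and Gal did not pass either (0.12, 0.75 and 0.84), and Tac1 differed by 3.92 (SE 0.42) as a description. Of the 8 members tested besides Tac1, 1 changed upward, 2 downward and 5 did not pass, where 33.2% of all genes were called, 19.2% upward and 14.0% downward.

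Genes of the granules that store peptides were read next. Among the 9 dense core granule genes, 5 were lower in KI at day 8, among them Ptprn (-0.69), Ptprn2 (-0.65) and Cadps (-0.46), and none was higher, where 19.5% of all genes were called. At day 16, 7 were higher and 1 was lower, where 46.9% were called. Scg2, the secretogranin II gene, went from 67.1 and 78.7 CPM in flox to between 158 and 167 CPM in KI (log2 fold change 1.15). Cadps2, a vesicle priming factor, rose by 0.76, while Vgf fell by 0.87 on the log2 scale. All 9 rose from day 8 to day 16 in both genotypes, as did 38.4% of all genes in flox and 40.7% in KI, with median log2 fold changes of 2.21 in flox and 3.20 in KI.

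Of the 11 processing enzymes and their cofactors, 2 were lower at day 8, near the 19.5% of all genes called, and 5 were higher and 4 lower at day 16, where 46.9% of all genes were called. Pcsk1, a prohormone convertase, rose by 2.22 on the log2 scale at day 16. Pcsk2, its partner convertase, went from 47.98 and 49.99 CPM in flox to 90.5 and 91.5 CPM in KI, a log2 fold change of 0.89. Scg5, which encodes the 7B2 chaperone of PCSK2, rose by 0.84.

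Receptors were measured with the peptides they bind. Among the 21 tested at day 16, 10 were higher in KI and 3 lower (median log2 fold change 0.42, beside 0.09 over all genes), where 27.1% of all genes were called as higher and 19.7% as lower. Tacr1, the substance P receptor, stood between 7.18 and 7.57 CPM in flox and between 26.5 and 34.3 CPM in KI (log2 fold change 2.04, SE 0.15, adjusted p = 1.03e-06). Tacr3, the neurokinin B receptor, went from between 0.720 and 1.25 CPM to between 4.21 and 5.20 CPM (log2 fold change 2.29). Sstr2, a somatostatin receptor, fell by 1.35 on the log2 scale. At day 8 the called receptors were 2 higher and 2 lower of 21, near the 19.5% of all genes called, with Npy1r at 1.69, Sstr3 at -1.63 and Oprd1, the delta opioid receptor, at -1.14.

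Peptide precursors outside the set were also read, 21 of 37 having passed the filter on low counts in the neural series. At day 8, 2 were higher in KI and 5 lower, where 19.5% of all genes were called. Calcb, which encodes a second CGRP and lies in the same gene family as Calca, rose from 0.0557 and 0.0659 CPM in flox to 0.978 and 1.24 CPM in KI (log2 fold change 4.14, SE 0.41, adjusted p = 1.77e-05). At day 16, 2 were higher and 4 lower, a smaller share than the 46.9% over all genes. Adcyap1, the PACAP precursor, rose by 2.83, whereas Adm, the adrenomedullin precursor, fell by 2.57 on the log2 scale. Tac2, the neurokinin B gene of the tachykinin family, fell by 2.42 on the log2 scale, opposite in direction to the Tac1 difference.

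Calca has 2 transcript entries in the tables, NM_001033954, which had more reads and stood for the gene, and NM_007587. The tables do not say which product each encodes, and reads of shared exons may have been counted in both. At day 8, NM_001033954 held 37.5% and 39.8% of the reads of both entries in flox and 38.2% and 37.6% in KI. At day 16 it held 66.0% and 66.3% in flox and 66.8% and 69.2% in KI. The share thus differed between the days in both genotypes, and the genotypes overlapped at day 8 but not at day 16; it was not tested. In reads at day 8, NM_001033954 had 128 and 154 in flox and 588 and 469 in KI, and NM_007587 had 213 and 233 in flox and 951 and 779 in KI. Both entries were therefore higher in KI at day 8. At day 16 NM_001033954 had 326 and 238 reads in flox and 420 and 295 in KI.

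**Figure D2:**
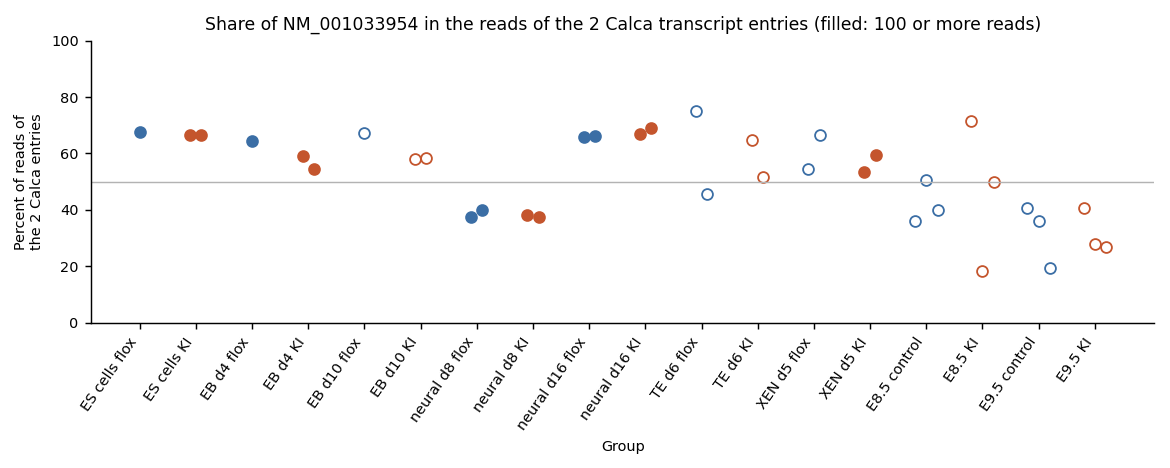
Percent of the reads of the 2 Calca entries that fell on NM_001033954, by group; each point is a library, filled where the entries held 100 or more reads together. The day 8 neural libraries lie between 37.5% and 39.8%, and the day 16 libraries between 66.0% and 69.2%, in both genotypes.

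In extraembryonic endoderm cultures, Nts and Calca were higher in KI. Nts stood at 1.75 and 2.37 CPM in flox and at 43.2 and 35.8 CPM in KI, 19.2-fold higher (log2 fold change 4.26, SE 0.21, adjusted p = 9.41e-09). Calca went from 0.60 and 0.53 CPM to 6.13 and 5.28 CPM (log2 fold change 3.33, SE 0.51, adjusted p = 0.000168). Neither pair of groups overlapped, and the flox level of Calca was under 1 CPM.

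Penk had 3 and 5 reads in the flox endoderm libraries and 52 and 65 in KI (0.15 and 0.26 CPM against 2.45 and 3.33 CPM). Sst had 0 and 2 reads in flox and 18 and 20 in KI, a ratio of 18.2 with a 95% counting interval from 4.70 to 156. Both passed the filter on low counts through the KI libraries where they are high, so their values are a description with no p. Tac1 had no read in flox and 5 and 3 reads in KI. Of the other 3 members tested, 2 were higher and Gal did not pass, where 35.5% of all genes were called, 18.1% as higher and 17.4% as lower. The summed level of the 10 members was 2.65 and 3.58 CPM in flox and 53.7 and 45.7 CPM in KI.

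All 10 extraembryonic endoderm markers were lower in these KI cultures (summed level 1482 CPM in flox, 230 and 238 CPM in KI, median log2 fold change -3.65), with Apoa1 and Ttr at 0 in both KI libraries. Mesothelial and fibroblast markers summed to 2458 and 2536 CPM in flox and to 743 and 867 CPM in KI, with 2 of 9 tested higher and 4 lower, and Lum at 0 in both KI libraries. Trophoblast markers summed to 3210 and 3218 CPM in flox and to 3897 and 4565 CPM in KI, above the sum of the endoderm markers. Of 9 tested, 5 were higher and 2 lower, and Tpbpa was at 0 throughout. Cdx2 of that list lay at 2.75 to 4.01 CPM in flox and 2.26 to 3.13 CPM in KI, so the sum alone does not name a cell type. Of the 12 neuron markers, 6 of 10 tested rose and 3 fell, and their summed level was 176 and 177 CPM in flox and 114 and 127 CPM in KI. The part of these marker shifts in the Nts, Calca and Penk differences was not tested. Among 10 cAMP and activity response genes, 8 rose and 1 fell, where 18.1% of all genes were called as higher and 17.4% as lower. Their summed level was 236 to 247 CPM in flox and 425 to 431 CPM in KI, with Nr4a2 at 1.36, Egr1 at 1.34 and Arc at -1.71 on the log2 scale. In the neural cultures the same list gave 1 higher and 3 lower at day 8 (median -0.42), and 2 higher and 3 lower at day 16 (median -0.31). Of 15 other peptide precursors tested, 7 rose and none fell, among them Pnoc, the nociceptin precursor (2.46), and Trh, the thyrotropin-releasing hormone precursor (1.95).

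Trophectoderm cultures transcribed little of any member. Nts had no read in either flox library and 8 and 10 reads in KI, at least 2.80-fold higher than the floor of 3 reads per library allows for flox. It passed the filter on low counts only through the endoderm libraries of the joint fit, so no p is given. Calca averaged 0.512 CPM in flox and 1.17 CPM in KI and did not pass (log2 fold change 1.20, SE 0.53, adjusted p = 0.0746). It did pass with its transcripts summed (1.39, adjusted p = 0.0183) and without flox replicate 1 (2.59, adjusted p = 0.00591). Tac1 and Sst had no read in any of the 4 libraries, and Sst passed the filter through the endoderm libraries alone. Of the other 3 members tested, Penk, Gal and Calca, 0 passed in edgeR's test and 0 in DESeq2. In edgeR's test 50.9% of all genes were called, 26.7% as higher and 24.2% as lower. Among the 15 other precursors tested, 3 rose and 2 fell, with Cort at -2.75, Sct at 2.39 and Nppb at 2.24.

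**Figure D3:**
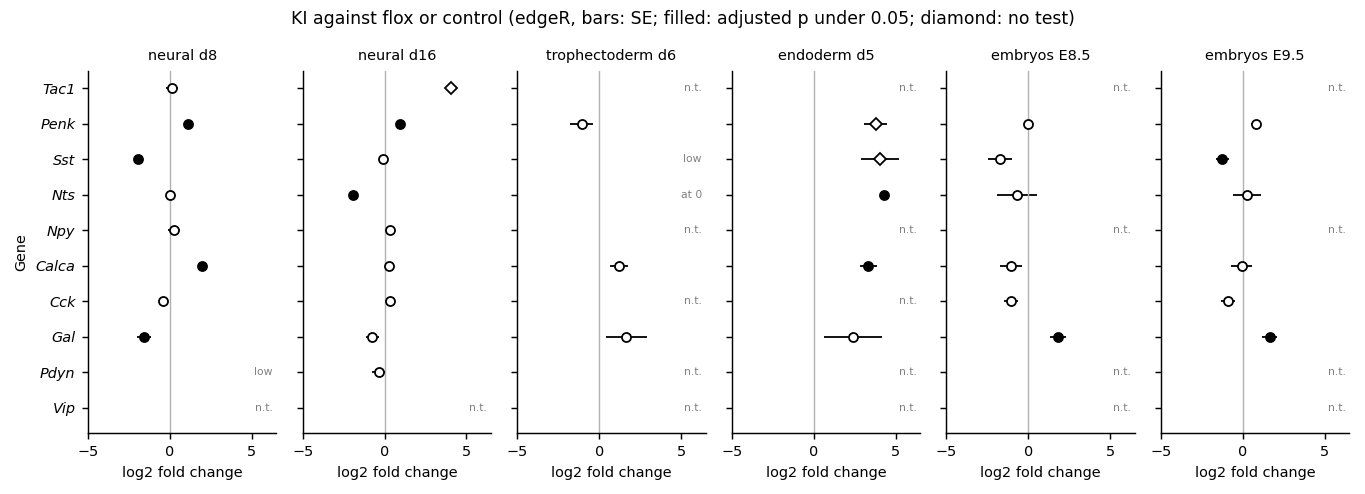
Log2 fold change of KI against flox or control for each gene in 6 comparisons (edgeR; bars are SE), filled where the adjusted p is under 0.05, with a diamond for values given without a test (Tac1 at day 16, Penk and Sst in endoderm); n.t. marks genes under the filter on low counts, low those with too few reads for a fold and at 0 a flox group without reads. Sst lies at -1.97 at neural day 8 and -0.08 at day 16, and Nts lies at -1.93 at neural day 16 and 4.26 in extraembryonic endoderm.

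Over the embryoid body course the KI libraries differed from flox for several members on single days, but no member passed the test averaged over the 3 days. That test called 0 of 9 members and 121 of 16567 genes (0.730%, with 0.398% higher and 0.332% lower, edgeR). Nts, at 3.40 on the log2 scale, had 0, 0 and 10 reads in flox at days 0, 4 and 10. It passed the filter on low counts through the KI libraries where it is high, so that value is a description with no p. With 1 flox library per day, the values of single days carry no test.

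In undifferentiated stem cells Calca was the only member above 0.23 CPM, at 9.37 CPM in flox and 5.56 and 6.43 CPM in KI. At day 4 Gal stood at 11.3 CPM in flox and at 2.75 and 2.76 CPM in KI. Both clones lay at least 2-fold below flox there on the log2(CPM + 0.5) scale, as did 4.21% of the genes with at least 1 CPM in 1 of the 3 libraries; 1.52% lay as far above and 5.73% on either side. Calca was at 5.21 CPM in flox and at 7.76 and 8.72 CPM in KI on that day. Npy was at 0.794 CPM in flox and at 1.67 and 2.35 CPM in KI, and Penk at 1.98 CPM in flox and 2.80 and 2.17 CPM in KI. In the same libraries trophoblast markers summed to 2191 CPM in flox and to 825 and 880 CPM in KI (Tpbpa at 0), mesothelial and fibroblast markers to 424 CPM against 167 and 192, and extraembryonic endoderm markers to 187 CPM against 105.2 and 112. Their part in the Gal difference was not tested.

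At day 10 Npy was at 0.543 CPM in flox and at 4.58 (clone 27) and 19.9 CPM (clone 48) in KI, so the clones differed from each other by more than 4-fold. Nts was at 0.362 CPM in flox and at 3.43 and 2.96 CPM in KI. Pdyn was at 0.217 CPM in flox and 1.38 and 1.71 CPM in KI, and Tac1 at 0.145 CPM in flox and 1.00 and 0.818 CPM in KI. These 4 genes were at least 2-fold higher in both clones, on the same scale, as 3.47% of genes were, while 3.82% were as far lower and 7.29% on either side. Sst and Cck lay the other way: Sst had 50 reads in flox and 1 and 4 in KI, and Cck had 49 reads in flox and 1 and 3 in KI, both also at least 2-fold lower on that scale. Penk was at 2.03 CPM in flox and 2.96 and 2.88 CPM in KI. Extraembryonic endoderm markers summed to 911 CPM in flox and to 1353 and 1564 CPM in KI on that day, and trophoblast markers to 703 CPM against 1087 and 1673; their part in these differences was not tested.

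**Figure D4:**
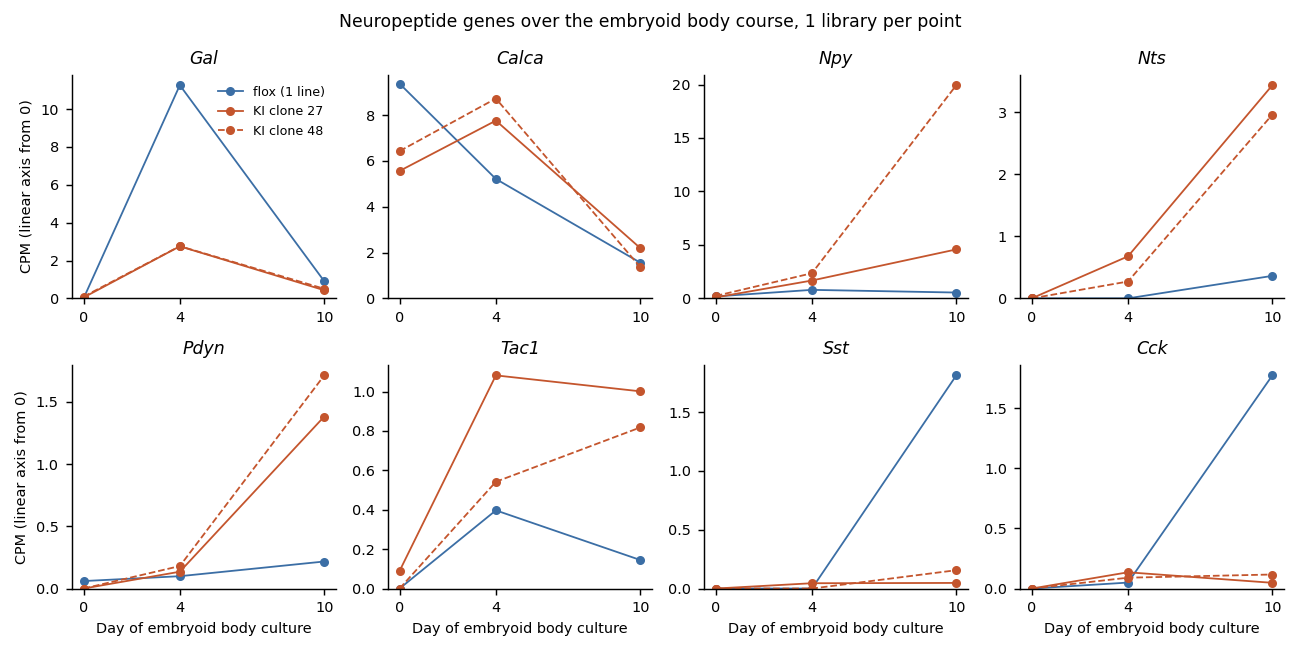
CPM (linear axes from 0) of the neuropeptide genes at days 0, 4 and 10 of the embryoid body course, 1 library per point, for flox and for KI clones 27 and 48. Gal is highest at day 4 in all 3, at 11.3 CPM in flox and 2.75 and 2.76 CPM in KI, and Npy at day 10 reaches 19.9 CPM in clone 48 and 4.58 CPM in clone 27.

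In whole embryos Gal was higher in KI at both stages, from low levels, and Sst was lower at E9.5. At E8.5 Gal stood at 1.15, 0.962 and 0.684 CPM in controls and at 5.77, 2.92 and 1.08 CPM in KI. The groups overlapped, KI was the higher of each pair with the same title number, and the log2 fold change was 1.80 (SE 0.48, adjusted p = 0.0334). With the number in the titles as a block it was 1.61 (adjusted p = 0.0144). The call was lost with only the E8.5 libraries fitted (adjusted p = 0.0695) and on leaving out any library other than KI 3 (adjusted p from 0.0580 to 0.231). The log2 fold change was 1.09 without KI 1 and 2.21 without KI 3. Cck was at 1.55, 3.81 and 1.17 CPM in controls and at 1.31, 1.23 and 0.632 CPM in KI, the lower value of each pair, and did not pass (log2 fold change -1.06, adjusted p = 0.177, or -0.95 and adjusted p = 0.136 with the block). Penk averaged 4.24 CPM in controls and 4.23 CPM in KI. Of 6 members tested, 1 was higher and 5 did not pass, where 5.46% of all genes were called, 3.63% as higher and 1.83% as lower.

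At E9.5 Sst stood at 7.04, 8.78 and 6.24 CPM in controls and at 3.67, 1.96 and 3.56 CPM in KI, with no overlap (log2 fold change -1.26, SE 0.39, adjusted p = 0.0200). Leaving out control 2 (adjusted p = 0.0864) or KI 2 (adjusted p = 0.0963) ended that call. Gal was at 0.743, 1.19 and 0.615 CPM in controls and at 2.45, 3.42 and 2.10 CPM in KI, again with no overlap (log2 fold change 1.63, SE 0.48, adjusted p = 0.0148). That call was lost without control 1 (adjusted p = 0.0576), control 3 (0.0545) or KI 2 (0.0669). Cck (-0.90, SE 0.42, adjusted p = 0.111) passed only with the title number as a block (-0.93, adjusted p = 0.0468). Penk (0.79, SE 0.32, adjusted p = 0.0663) passed without control 1 (1.03, adjusted p = 0.0475) or KI 1 (1.01, adjusted p = 0.0280). Of 6 members tested, 1 was higher, 1 lower and 4 did not pass, where 29.5% of all genes were called, 14.6% as higher and 14.9% as lower.

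Of the 12 neuron markers, 9 were lower in E9.5 KI embryos and none was higher (summed level 276 to 389 CPM in controls, 117 to 124 CPM in KI), and none was at 0. Extraembryonic endoderm markers summed to 134 to 140 CPM in controls and to 305 to 450 CPM in KI, with 4 of 10 higher. Trophoblast markers were higher for 5 of 9 tested (181 to 387 CPM in controls, 594 to 634 CPM in KI), with Tpbpa at 0 in each E9.5 library, and neural progenitor markers were lower for 7 of 8 (857 to 1081 CPM in controls, 567 to 667 CPM in KI). Of 8 granule genes tested, 3 fell, namely Scg3 (-1.70), Chga (-1.20) and Ptprn2 (-0.83). Among 18 other precursors tested, 5 rose and 1 fell, where 29.5% of all genes were called, with Nppc at -4.18, Adm at 3.49 and Cort at 2.85. Mesothelial and fibroblast markers summed to 810 to 1521 CPM in E9.5 controls and to 1580 to 2201 CPM in KI, with 4 of 9 tested higher and Msln at 0. At E8.5, trophoblast markers summed to 637 to 775 CPM in controls and to 980 to 1156 CPM in KI (2 of 9 tested higher, Tpbpa at 0), and mesothelial and fibroblast markers to 578 to 731 and 782 to 1483 CPM. Extraembryonic endoderm markers overlapped there (243 to 614 and 257 to 622 CPM, 3 of 10 higher). At E8.5 2 precursors rose, Adcyap1 (3.98) and Pyy (2.23). The part of these marker shifts in the Sst and Gal differences was not tested.

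**Figure D5:**
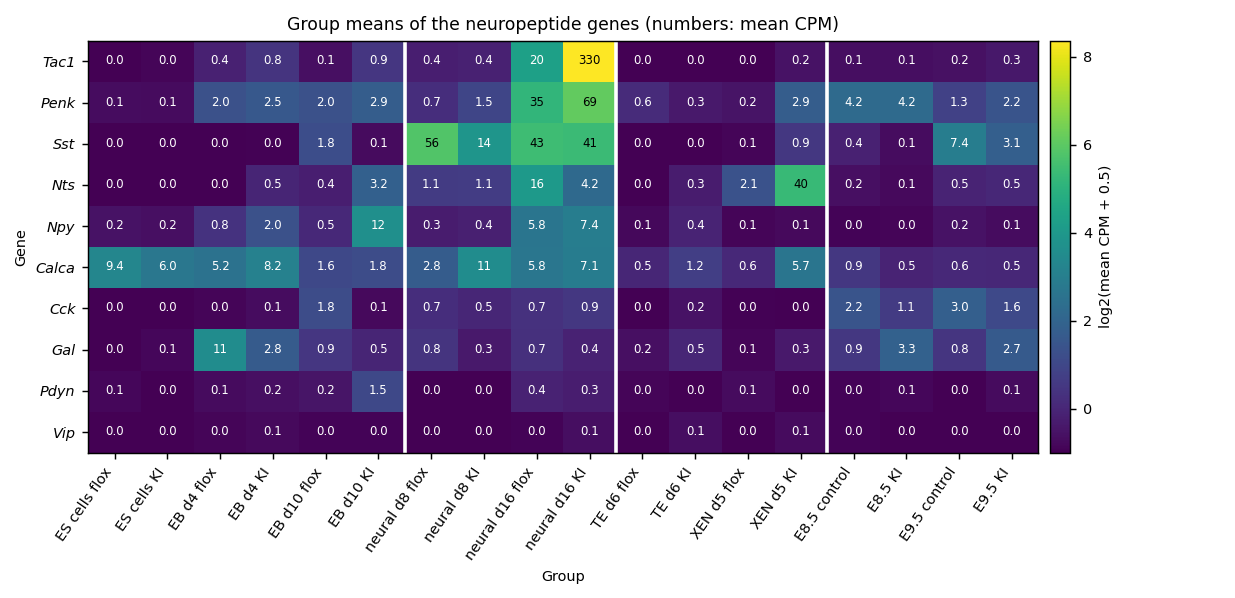
Mean CPM of each neuropeptide gene in the 18 groups, with colour for log2(mean CPM + 0.5) and the mean CPM written in each cell; scaling was done separately in the neural, trophectoderm and endoderm, embryo and embryoid body libraries. Tac1 and Penk have their highest means in day 16 KI neurons (330 and 69.2 CPM), and Sst, Nts, Gal and Calca have theirs in 4 other groups.

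The members differed in where they were highest, with levels from separately scaled sets of libraries. Tac1 had its highest mean in day 16 KI neurons (330 CPM), then day 16 flox (19.7 CPM), then day 10 KI embryoid bodies (0.910 CPM), and the neural day 16 libraries held 99.4% of its 35820 reads. Penk followed a like order, with 69.2 and 35.4 CPM in day 16 KI and flox neurons and then 4.24 and 4.23 CPM in E8.5 control and KI embryos, which overlapped. Sst was highest in day 8 flox progenitors (55.5 CPM), followed by day 16 flox (43.5 CPM) and KI neurons (41.2 CPM), which overlapped, and by day 8 KI progenitors (14.2 CPM). Nts was highest in KI endoderm cultures (39.5 CPM), ahead of day 16 flox neurons (15.8 CPM).

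Npy averaged 12.3 CPM in day 10 KI embryoid bodies and 7.42 CPM in day 16 KI neurons, and these groups overlapped. Gal was highest in the day 4 flox embryoid body library (11.3 CPM), before E8.5 KI embryos (3.26 CPM). Calca averaged 11.2 CPM in day 8 KI progenitors, and the flox stem cell library (9.37 CPM) lay within the range of that group. Cck reached 3.03 CPM in E9.5 control embryos and Pdyn 1.55 CPM in day 10 KI embryoid bodies. Vip had 39 reads in all and none in 25 of 37 libraries.

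Over the 18 group means, the genes most like each member with at least 10 CPM in a group were named by Pearson's r of log2(CPM + 0.5), as a description over groups that share scaling within each set of libraries. For Tac1 they were Gm20754 (0.987), Cdh12 (0.986) and Grp (0.983), the last encoding gastrin-releasing peptide. For Penk they were the receptor subunit genes Gabra4 (0.937), Grin3a (0.927) and Gria4 (0.926). For Sst they were Lbx1 (0.973), Fap (0.965) and Myt1 (0.96). Npy was most like Trpc5 (0.906), Htr4 (0.871) and Cntn4 (0.864), Nts most like Ccn3 (0.918), Atp2b1 (0.881) and Dlgap4 (0.872), and Gal most like Gna14 (0.904), Apln (0.9) and Laptm4b (0.873). For Calca the highest were AU015228 (0.863), Zfp781 (0.853) and Zfp738 (0.85). Between members the highest values were 0.875 for Tac1 with Penk and 0.846 for Npy with Pdyn.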

How the data were processed

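RNA-seq tables of 37 libraries were analysed; 63 other samples of the series were not used here. Each table holds 29082 transcripts with a deposited read count and the authors' RPKM. The ratio of count to RPKM was fixed between libraries to within 2%, apart from a factor for each library. That held for 100% of the values of 9625 transcripts with at least 200 reads in every library. STAR, Bowtie2, SICER 1.1, bcl2fastq and mm9 appear in the submitters' processing notes, without their roles; the use of strand is not given in the sources used here.

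RefSeq identifiers were matched to symbols for 28436 transcripts (GRCm38.p6). The 646 without a match were kept as entries under their own identifiers, so they count among the 23109 entries and, past the filter, the genes tested. Only the likeness comparison left them out. The transcript with the most reads over all libraries stood for its gene. Counts were tested with edgeR 4.0.16 (R 4.3.3; TMM, filterByExpr with a minimum of 10 counts, robust quasi-likelihood fit, adjusted p threshold 0.05) in separate fits of the neural, the trophectoderm and endoderm, the embryo and the embryoid body libraries. CPM is a count scaled to the effective library size. The counting interval is an exact binomial one at 95%. Alternatives were DESeq2 1.42.0, RLE scaling, leaving out the 100 most abundant genes, no filter, summed transcripts, only the libraries compared, a replicate block and leaving out each library. The fit was tested on simulated data.

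The members and the gene lists were chosen with earlier results of these data known. Every member is accounted for, with library values where it passed the test or reached 5 CPM in a group mean; from each other list at most the 3 genes past the test with the largest change were named in a comparison. Likeness used genes with at least 1 CPM in a group, with log2(CPM + 0.5) computed from the deposited counts. The KI clones 27 and 48 are the same clones on both neural days (r = 0.283 between their deviations from group means; 0.109 for the flox numbers). At E8.5 same-numbered embryo libraries deviated together (r = 0.344, 0.399 and 0.181), and at E9.5 not every such pair did (-0.004 to 0.216). The labels do not say what the embryo numbers stand for. The 2 day 8 flox libraries differed by little more than sampling noise (chi-square over its degrees of freedom 1.5; the other pairs of 23 gave 2.76 to 54.83) and were kept as 2.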

Additional observations from a re-analysis of the deposited data

Results flagged for a closer look

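For 3 genes the difference between KI and flox changed between neural day 8 and day 16, by edgeR's test of that change itself (values on the log2 scale, day 16 minus day 8). For Sst it was 1.90 (adjusted p = 3.10e-05), from -1.97 at day 8 to -0.08 at day 16. For Nts it was -1.95 (adjusted p = 0.000179), from 0.02 to -1.93. For Calca it was -1.70 (adjusted p = 0.00102), from 1.98 to 0.28. On leaving out each library the values ran from 1.73 to 2.08 for Sst, from -2.08 to -1.81 for Nts and from -2.04 to -1.42 for Calca; those fits leave 1 library in a group, which is assumed to vary like the other groups.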

How the results depend on the processing

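Over all alternatives, 487 single-gene values kept their direction and side of the threshold, 28 lost a call, 9 gained one, 11 changed sign and 4, all of Tac1, moved by more than the spread. Of the counts, 198 stayed within 1.5 times of the main count and 34 did not. The trophectoderm fit counted 1 member as called, which is Nts and is not read as a call because of its filter; that count was 2 with transcripts summed and 0 with only the libraries compared. At E8.5, 0 members were called with only the libraries compared, and the title number as a replicate block raised the genes called from 843 to 1304, of which 827 were in the main 843. In the embryoid bodies DESeq2 called 778 genes, 120 of the main 121 among them. It also called 1 member, Nts, which is not read as a call because of its filter. Leaving out each library, which leaves culture groups of 2 with a lone sample assumed to vary like the others, gave 1896 to 2362 genes (main 3202) at neural day 8, 3621 to 6038 (main 5450) for the day difference, 3641 to 4967 (main 5520) in endoderm, 363 to 755 (main 843) at E8.5 and 26 to 332 (main 121) in the embryoid bodies. The members counted ranged from 1 to 2 in trophectoderm, Nts included, 0 to 1 at E8.5 and 0 to 3 at E9.5. Values that changed sign did so short of the threshold: on leaving out single libraries, day 16 Sst ran from -0.23 to 0.11 and Calca from -0.061 to 0.562, the day difference of Npy from -0.29 to 0.46 and of Penk from -0.39 to 0.14, and embryoid body Calca from -0.28 to 0.43; the cause was not tested. At day 16, single libraries left out brought Npy (0.52, adjusted p = 0.0430), Gal (-1.20, 0.0493) and Calca (0.56, 0.0431) past the threshold. With the flox number or clone as a replicate block, 12782 genes changed with day in flox, 13219 in KI and 5914 between them. The members called were the same, and at E9.5 the title number block added Cck (-0.93). No paired analysis was possible because the KI and flox cultures share no replicate numbers. Depth limits Vip, Pdyn and most members outside the neural series, where 3 reads amount to 0.109 to 0.159 CPM.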
